A study of Saccharum hybrid cultivar with 12 samples.

Results

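The data describe how the stem transcriptome of the medium-sucrose sugarcane genotype MS (cultivar YT71-210, sucrose content 12.6%) differed between ethephon and water. The 4 libraries were chosen by their labels: MS_T1 and MS_T2 from plants sprayed with ethephon, MS_CK1 and MS_CK2 from plants sprayed with water, out of 12 libraries in all. Every MS plant was a field-grown, non-commercial clone of a Saccharum hybrid, was 8 months old at the spray and received either a solution of 400 mg/L ethylene prepared from ethephon (MS_T) or water (MS_CK). Developing stalk tissue, cut 20 cm above the node of a young expanded leaf, was taken 7 days later from 2 biological replicates per group. The other 8 libraries came from the high-sucrose cultivar ROC22 (HS, 15%) and the low-sucrose genotype GT86-887 (LS, 6%), treated and sampled alike, and were used here for the shared estimate of spread and for direct tests against MS. Each sucrose class is 1 cultivar, so a difference between classes and a difference between cultivars cannot be told apart. The unigenes carry numbers without gene names, so the stem tissue could not be checked against cell type markers.

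Ethephon breaks down inside plant cells and releases ethylene, a gaseous hormone that is sensed by membrane receptors and acts through EIN3-type and ERF transcription factors. Sugarcane growers spray it as a ripener, because ethylene slows stem elongation and can favour the storage of sucrose in the stalk. Sucrose is made by sucrose phosphate synthase and sucrose phosphatase, and is cleaved by invertases and by the reversible enzyme sucrose synthase. Some membrane ATPases, but not all, supply the gradients that drive sugar transport into storage cells.

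The MS libraries held between 20453600 and 28747100 expected counts, and MS_T replicate 2 was the deepest of the 12. It also had the most expressed unigenes in MS, 96329 against 85815 to 87733 in the other 3. In bulk tissue, fewer cells of a type and less RNA per cell cannot be told apart. Values below are counts scaled to a common library total (CPM, with TMM scaling), and changes are log2 fold changes, positive where MS_T was higher. Their tests are edgeR's quasi-likelihood test over 54433 unigenes, with Benjamini-Hochberg adjusted p. The 5% threshold is an adjusted p under 0.05, and the strict threshold is an adjusted p under 0.005 with a fold change over 2. The smallest p of an exact permutation test on 2 libraries against 2 is 0.333. The tests therefore borrow the spread of all 12 libraries, and their p-values measure only the spread between these libraries.

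One MS library stood apart. Of 601 unigenes with a fitted fall over 16-fold in MS_T vs. MS_CK, 501 had at least 90% of their MS_CK signal in replicate 2, and only 1 in replicate 1. These 501 unigenes took 0.167% of the counts of MS_CK replicate 2, 4.01e-04% of those of MS_CK replicate 1, 0% of MS_T replicate 1 and a single count in MS_T replicate 2. The same unigenes were counted in HS libraries of both treatments: 501 of them in HS_CK replicate 2, 500 in HS_T replicate 1 and 501 in HS_T replicate 2, against 30 in HS_CK replicate 1. Their share reached 2% of the counts of HS_T replicate 2, and 490 of the 501 had no count in any LS library. The set was therefore present or nearly absent by single library and not by treatment, and what it is was not tested. It supplied all of the 20 largest fitted falls in MS, down to -15.54, but none passed the 5% threshold (lowest adjusted p = 0.344, median standard error 4.33), and 5 had an unadjusted p under 0.05. The set was defined after its values were seen, and counts of calls are given with and without it.

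**Figure D1:**
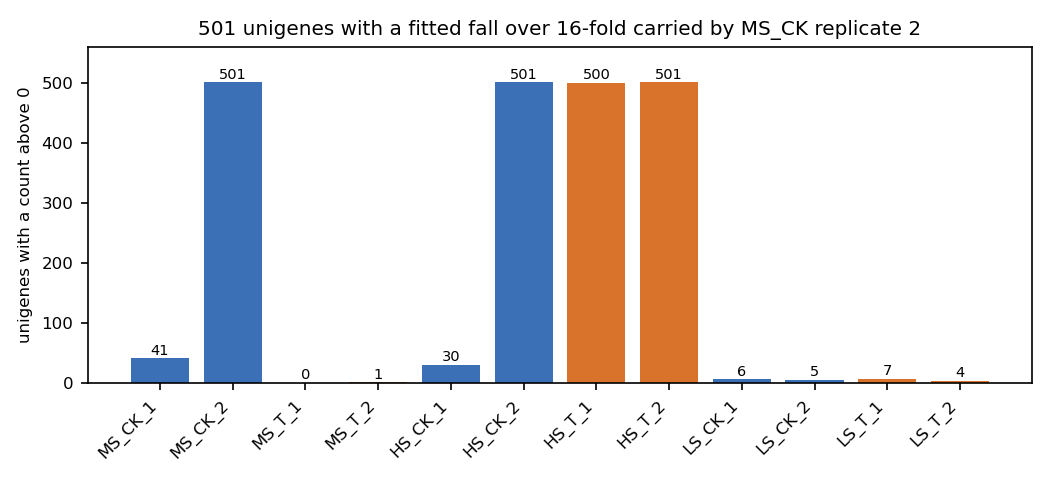
Number of the 501 unigenes with a count above 0 in each library (bars; blue for water, orange for ethephon; MS first, then HS and LS). The bars stand at 500 or 501 in MS_CK replicate 2, HS_CK replicate 2 and both HS_T libraries and between 0 and 41 in the other 8 libraries.

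The first comparison asked which unigenes the ethephon spray changed in MS. At the 5% threshold 199 unigenes were up-regulated and 102 down-regulated, which are 0.366% and 0.187% of those tested, and at the strict threshold 1 was called (0.00184%). The up-regulated unigenes rose by a median of 2.21 on the log2 scale, 115 of them more than 4-fold, and the down-regulated ones had a median of -2.35, 62 of them more than 4-fold. The median FPKM (which also corrects for unigene length) of the up-regulated group went from 1.84 in MS_CK to 12.4 in MS_T, and that of the down-regulated group from 19.9 to 3.28. Together the up-regulated unigenes took 0.138% and 0.117% of the counts of the 2 MS_CK libraries and 0.632% and 0.64% of those of MS_T. The down-regulated unigenes took 0.368% and 0.383% under water and 0.107% and 0.0912% after ethephon. For all 301 called unigenes the MS_T values lay on 1 side of both MS_CK values, as they did for 41.9% of all tested unigenes (21.5% above, 20.4% below). Of the up-regulated unigenes, 6 had no count in MS_CK and 22 had 3 or fewer, so their fitted fold changes are no bounds. Among those with more counts in MS_CK the largest rise was 9.63 on the log2 scale, and the largest called fall was -6.07.

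The number of calls depended on single libraries. Without MS_CK replicate 1 edgeR called 0 up- and 0 down-regulated unigenes (lowest adjusted p = 0.0597), with 3036 and 2602 at an unadjusted p under 0.05. Without MS_CK replicate 2 it called 1 and 5, without MS_T replicate 2 30 and 1, and without MS_T replicate 1 262 and 76. The lone library of a group was then assumed to vary like the other groups. All 301 unigenes had the same sign in each of these 4 fits, and 0, 4, 28 and 165 of them were called again, in the order given. The kept sign says little, because the MS groups of all 301 did not overlap and leaving out 1 library could hardly turn it. Without the 501 unigenes carried by MS_CK replicate 2, the model called 370 up- and 275 down-regulated unigenes, and all 301 were among them. The share of unigenes with groups apart was then 42.2%.

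**Figure D2:**
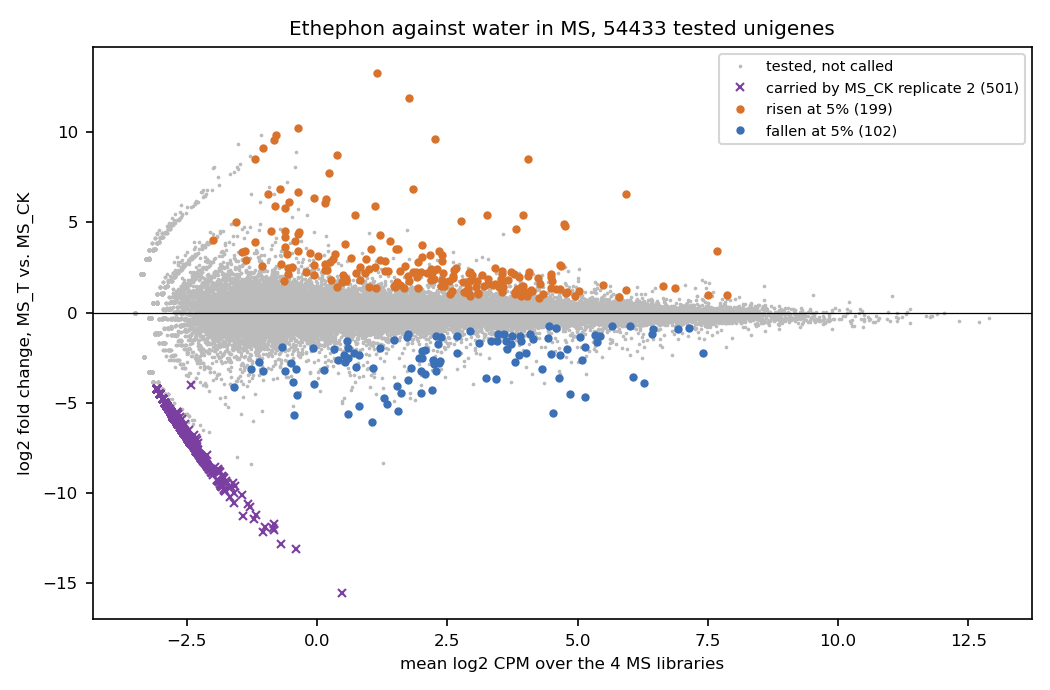
Log2 fold change of MS_T vs. MS_CK (vertical axis) against the mean log2 CPM over the 4 MS libraries (horizontal axis) for 54433 unigenes. Orange points are the 199 up-regulated and blue points the 102 down-regulated unigenes at the 5% threshold; purple crosses are the 501 unigenes carried by MS_CK replicate 2, which reach -15.54 at low levels without passing the threshold.

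Over all tested unigenes of MS, treatment took 52% of the variation of log2 CPM and the difference between replicates 48%, against 34.8% for treatment in HS and 70.6% in LS. Without the 501 unigenes treatment took 54.5% in MS. The mean square of treatment was 2.17 times that of replicates in MS, 1.07 times in HS and 4.8 times in LS. A pair of MS_CK libraries differed more than 2-fold for 8.28% of tested unigenes and the pair of MS_T libraries for 6.67%. The 4 pairs of an ethephon and a water library gave 9.71% to 14.5%, with the highest value between MS_CK replicate 2 and MS_T replicate 2. The median size of the ethephon effect over all tested unigenes was 0.28 on the log2 scale in MS, 0.19 in HS and 0.39 in LS.

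The unigenes with the smallest p in each direction have no name in the text of the study, and no role is given to them. For c94165_g1 the values were 2.04 and 2.67 CPM in MS_CK and 94.3 and 103 CPM in MS_T. Both ethephon libraries were far above both water libraries, with a log2 fold change of 5.39 (SE 0.35, adjusted p = 6.17e-04), the only call at the strict threshold. The adjusted p was 0.0597 without MS_CK replicate 1 and at most 0.0203 without any other single MS library. In HS c94165_g1 rose by 7.08 and in LS by 2.65 on the log2 scale (adjusted p = 5.96e-05 and 6.84e-04).

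A second unnamed unigene, c69704_g1, was close to absent under water, at 0.243 and 0.346 CPM, and reached 30.3 and 37.9 CPM after ethephon. The groups did not overlap, and the log2 fold change was 6.83 (SE 0.62, adjusted p = 0.00503). It passed the 5% threshold without either MS_T library but not without MS_CK replicate 1 or 2 (adjusted p = 0.0812 and 0.0797). The rise was 7.65 in HS and 3.05 in LS, both also past the 5% threshold. In HS_CK it stood at only 0.349 and 0.1 CPM, against 54.8 and 40.9 CPM in HS_T, so the size of the HS rise is poorly fixed.

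Of the down-regulated unigenes, c85522_g1 went from 36.8 and 29.8 CPM in MS_CK to 7.18 and 5.82 CPM in MS_T. The log2 fold change was -2.36 (SE 0.22, adjusted p = 0.00503), and the adjusted p was 0.0812 without MS_CK replicate 1. In LS, where the 4 libraries held 23.1 to 34.6 CPM, the log2 fold change of c85522_g1 was 0, and in HS it was -0.8 (adjusted p = 1 and 0.593).

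The values of c78613_g1 were 12.8 and 12.9 CPM in MS_CK and 1.92 and 1.83 CPM in MS_T, so that replicates almost coincided and the groups were far apart (log2 fold change -2.78, SE 0.33, adjusted p = 0.00968). Its adjusted p was 0.0812, 0.0943 and 0.116 without MS_CK replicate 1, MS_CK replicate 2 and MS_T replicate 2. In LS the same unigene was higher after ethephon, at 10.5 and 8.99 CPM against 4.26 and 4.35 (log2 fold change 1.18, adjusted p = 0.0368).

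**Figure D3:**
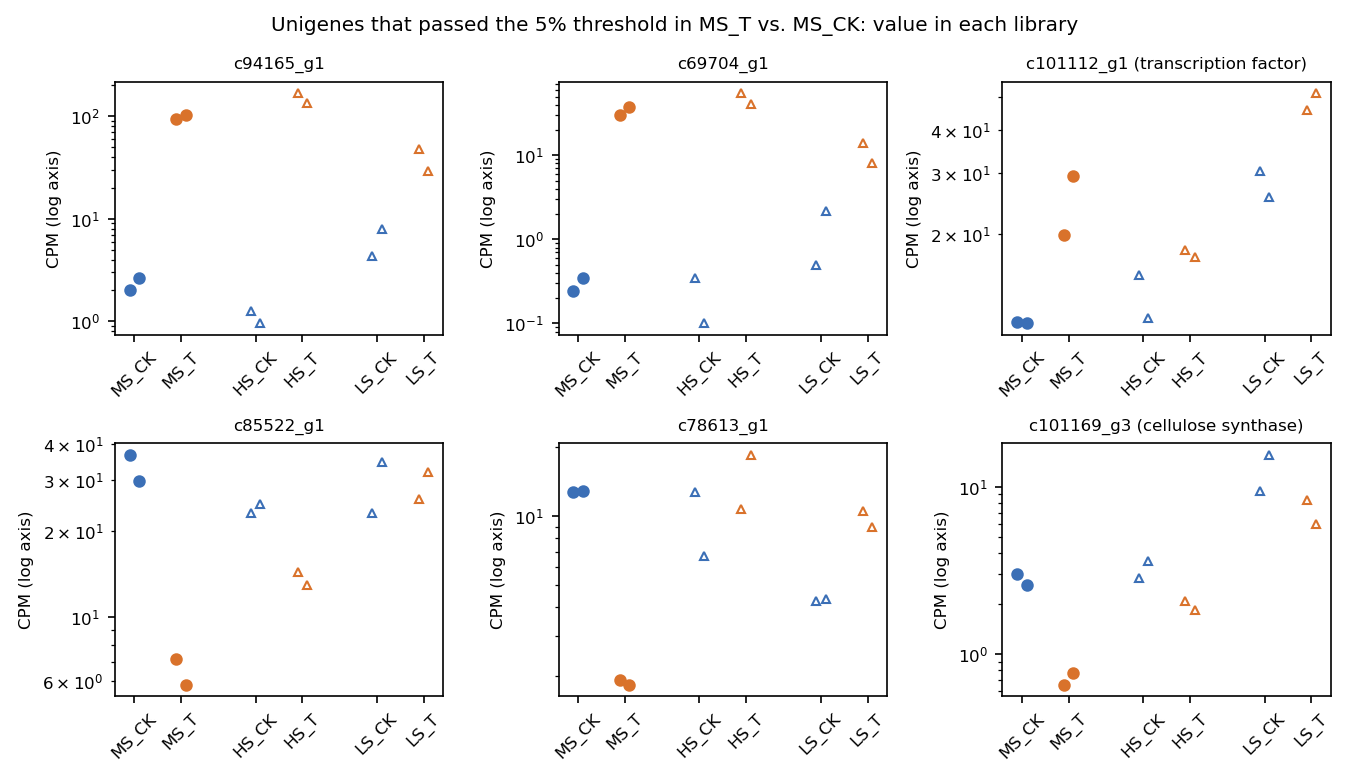
CPM on a log axis in each of the 12 libraries for 6 unigenes that passed the 5% threshold in MS (filled circles, MS; open triangles, HS and LS; blue, water; orange, ethephon; 2 points per group). In MS the 2 groups do not overlap in any panel; c85522_g1 and c78613_g1 fell to 5.82 and 1.83 CPM at the lowest in MS_T.

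Calls were spread unevenly over expression levels. When tested unigenes were divided into 4 equal groups by level, 0.0882% were called in the lowest group, 0.389% in the next, 0.897% in the third and 0.838% in the highest. The median standard error of a log2 fold change was 0.62 in the lowest group and 0.17 in the highest. Trinity, the assembler used, names a unigene by a component and a number, and unigenes of 1 component can be similar copies between which reads are divided. The 301 called unigenes lay in 283 components, 18 of which held more than 1, and no component held both an up- and a down-regulated unigene. The 129 tested but uncalled relatives of up-regulated unigenes had a median log2 fold change of 0.26, with 82 above 0. The 47 relatives of down-regulated unigenes had a median of -0.37, with 13 above 0. Over all 54433 tested unigenes the median was 0, with 26676 above 0.

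The study names 78 unigenes with a function, and all 78 were tested. In MS_T vs. MS_CK 1 of them was up-regulated and 1 down-regulated at the 5% threshold, 1.28% each, against 0.366% and 0.187% of all tested unigenes. At an unadjusted p under 0.05 there were 12 above and 6 below 0, where 6.48% and 5.83% of all tested unigenes were. DESeq2's Wald test called 946 up- and 823 down-regulated unigenes of the 54433 tested, many more than edgeR. With limma on log2(FPKM + 1) the counts were 187 and 77. These figures over all tested unigenes are the background for the counts of each list below. The groups were apart for 47.4% of the 78, against 41.9% of all. The study chose these unigenes partly for how they changed in these samples, so their directions are not independent evidence, and calls for a list rest on few members.

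All 5 unigenes of sucrose synthesis and reversible cleavage were higher in both MS_T libraries than in both MS_CK libraries, with log2 fold changes from 0.32 to 1.15 (median 0.55, against 0 over all tested unigenes). Groups were apart in this direction for 21.5% of all tested unigenes. By edgeR 0 passed the 5% threshold and 3 had an unadjusted p under 0.05, where 6.48% of all tested unigenes lay above 0. DESeq2's Wald test called 2 and limma 0, against 946 and 187 up-regulated of the 54433 tested. The nearest was SPP2 (c91176_g1), a sucrose phosphatase, which removes the phosphate in the last step of sucrose synthesis. Its values were 4.72 and 3.46 CPM in MS_CK and 7.7 and 10.4 CPM in MS_T (log2 fold change 1.15, SE 0.23, adjusted p = 0.0578). SPP2 passed the threshold without the 501 unigenes carried by MS_CK replicate 2 (adjusted p = 0.0349) and without MS_T replicate 1 (adjusted p = 0.0498), but not without MS_CK replicate 1 (0.154), MS_CK replicate 2 (0.356) or MS_T replicate 2 (0.42), nor with limma (0.226). In LS SPP2 rose by 1.51 (adjusted p = 0.00192), and in HS the log2 fold change was 0.05.

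Sucrose synthase SUS4 (c96004_g2) had 363 and 246 CPM in MS_CK and 418 and 560 CPM in MS_T (log2 fold change 0.68, SE 0.21, adjusted p = 0.203). Both ethephon libraries were above both water libraries, but the water replicates lay farther from each other than the higher one lay from the nearer ethephon library. SUS3 (c83314_g1) was tighter within groups, at 48.6 and 56.2 CPM against 74.9 and 78.1 CPM (log2 fold change 0.55, SE 0.21, adjusted p = 0.309).

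The 2 unigenes annotated as sucrose phosphate synthase SPS1F, which makes sucrose phosphate, differed little. For c72504_g1 the values were 20.3 and 23.1 CPM in MS_CK and 23.8 and 31 CPM in MS_T (log2 fold change 0.34, adjusted p = 0.563). For c72030_g1 they were 41.1 and 48.6 against 50.4 and 61.4 CPM (log2 fold change 0.32, adjusted p = 0.594). In both, the nearer ethephon library was only just above the nearer water library.

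Among 7 invertases and sucrose alpha-glucosidases, which split sucrose into glucose and fructose, edgeR called 0, with 1 at an unadjusted p under 0.05, DESeq2's Wald test called 1 and limma 0, and 3 had their groups apart, all above (42.9%, against 41.9% of all tested unigenes in either direction). A pair of them, c91663_g1 and c84505_g3, had at most 1 count in any MS library and gave no usable fold change. The median of the other 5 was 0.24. The sucrose alpha-glucosidase c99737_g1 had 8.71 and 7.26 CPM in MS_CK and 15.2 and 13.4 CPM in MS_T (log2 fold change 0.84, SE 0.21, adjusted p = 0.116), the clearest separation on this list. A second one, c93760_g1, was flat at 50.1 and 52.2 CPM against 58 and 53.6 CPM (log2 fold change 0.12).

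The cytosolic invertase CINV2 (c93030_g1) had 35 and 41.5 CPM under water and 44 and 39.6 CPM after ethephon, and the groups overlapped. The cell wall invertase CWINV3 is represented by c102611_g1 and c102611_g2, relatives of 1 component whose reads may be divided. They had 24.8 and 22.5 against 25.2 and 30.8 CPM, and 2.92 and 3.8 against 4.69 and 3.38 CPM, with log2 fold changes of 0.24 and 0.26 (adjusted p = 0.602 and 0.838). In LS c102611_g1 rose by 0.92 (adjusted p = 0.00666), and the difference in effect between MS and LS was -0.68 with an adjusted p of 0.218.

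All 4 membrane ATPase unigenes were also higher in both MS_T libraries (median log2 fold change 1.39), as were 21.5% of all tested unigenes. edgeR called 0 of them, with 2 at an unadjusted p under 0.05, and DESeq2's Wald test called 2 and limma 0. The unigene annotated as ATPase (c79387_g1) had 4.14 and 3.26 CPM in MS_CK and 7.42 and 11.4 CPM in MS_T (log2 fold change 1.35, SE 0.36, adjusted p = 0.141). ACA2 (c87964_g1), in Arabidopsis a calcium-pumping ATPase, had 3.6 and 3.75 CPM against 7.32 and 5.75 CPM (log2 fold change 0.82, SE 0.22, adjusted p = 0.142).

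The other members of this list were near the limit of detection in MS. ATPase2 (c101111_g2) had 3 and 4 counts in MS_CK and 8 and 17 in MS_T (log2 fold change 1.42, SE 0.67, adjusted p = 0.424). AATP1 (c87456_g3) had 6 and 3 counts against 7 and 38, so that only 1 ethephon library stood clear of the water libraries (log2 fold change 1.87, SE 1.02, adjusted p = 0.503). All 4 ATPases were called in LS, where the list's median log2 fold change was 3.22. The effect on ACA2 differed between MS and LS by -2.27 (adjusted p = 0.00433), and for the other 3 the difference did not pass the threshold (adjusted p from 0.211 to 0.476).

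**Figure D4:**
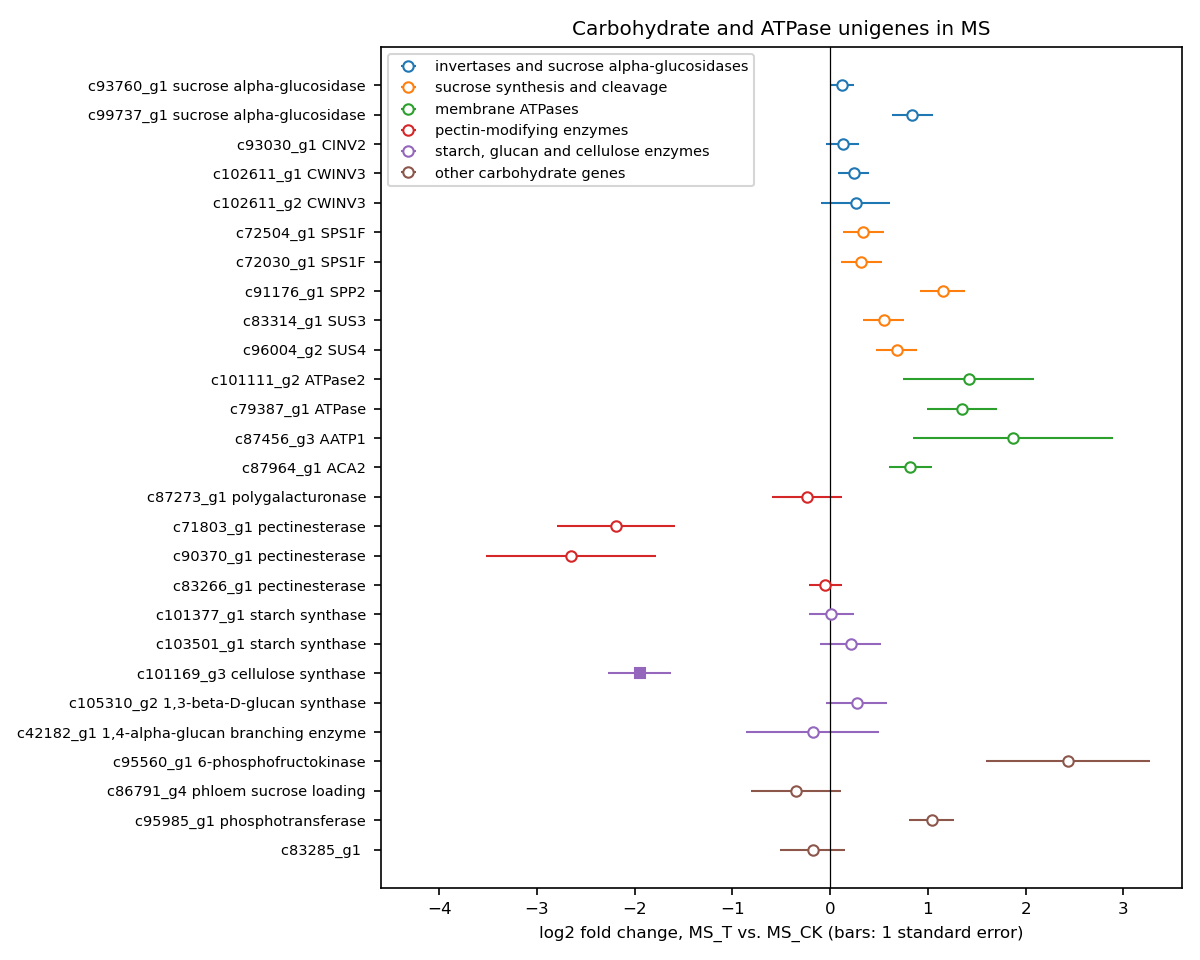
Log2 fold change in MS_T vs. MS_CK (horizontal axis, bars 1 standard error) for the carbohydrate and ATPase unigenes with more than 3 counts in at least 1 MS group, coloured by list. The filled square is the only member past the 5% threshold, c101169_g3 (named as a cellulose synthase and also as a transcription factor) at -1.95; all 5 unigenes of sucrose synthesis and cleavage and all 4 ATPases lie above 0 without passing it.

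Among the unigenes listed as cell wall enzymes 1 was down-regulated, c101169_g3. The study names it as a cellulose synthase, the enzyme that makes the cellulose of the wall, and elsewhere as a transcription factor, so its annotation is uncertain. It had 3.02 and 2.57 CPM in MS_CK and 0.657 and 0.772 CPM in MS_T. Both ethephon libraries were below both water libraries, with a log2 fold change of -1.95 (SE 0.32, adjusted p = 0.034), from 62 and 52 counts to 14 and 24. The call was lost without any 1 of the 4 MS libraries (adjusted p from 0.1 to 0.248), on counts thinned to the smallest library (0.0559) and with limma on log2(FPKM + 1) (0.333). In HS it stood at -0.71 and in LS at -0.8 on the same scale, neither past the threshold, and the MS effect differed from that in LS by -1.14 (adjusted p = 0.25).

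The 4 pectin-modifying unigenes had log2 fold changes below 0 (median -1.22). edgeR called 0 of them, with 2 at an unadjusted p under 0.05, and DESeq2's Wald test called 1 and limma 0. Pectinesterases remove methyl groups from wall pectin. The pectinesterase c71803_g1 had 11 and 19 counts in MS_CK and 6 and 2 in MS_T, with the groups apart (log2 fold change -2.19, SE 0.6, adjusted p = 0.151). Another, c90370_g1, had 43 and 13 counts against 7 and 4 (log2 fold change -2.65, SE 0.87, adjusted p = 0.234). The abundant pectinesterase c83266_g1 stood at 41 to 49.3 CPM in the 4 libraries, with overlapping groups and a log2 fold change of -0.05. The polygalacturonase c87273_g1, which cuts pectin chains, had 16 to 20 counts in each library.

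None of the starch and glucan enzymes was called or had an unadjusted p under 0.05, and DESeq2's Wald test and limma called 0 of them. The starch synthases c101377_g1 and c103501_g1 had log2 fold changes of 0.01 and 0.21 and overlapping groups, at 8.74 to 10.2 CPM and 8.54 to 15.5 CPM. The branching enzyme c42182_g1, which adds side chains to starch, had 8 to 22 counts, and the callose-forming glucan synthase c105310_g2 had 12 to 24. Of the other carbohydrate unigenes, the phosphotransferase c95985_g1 had 3.26 and 2.07 CPM under water and 5.26 and 5.72 CPM after ethephon (log2 fold change 1.04, SE 0.23, adjusted p = 0.0722, 0.0493 without the 501 unigenes, and 0.119 to 0.426 with 1 MS library left out). The 6-phosphofructokinase c95560_g1, of an early step of glycolysis, had 3 and 0 counts against 9 and 13 (adjusted p = 0.259). The unigene annotated with phloem sucrose loading, c86791_g4, had 15 and 11 against 6 and 21 counts, with overlapping groups.

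Of 27 unigenes listed here as transcription factors, 1 was up-regulated and 0 down-regulated at the 5% threshold (2 and 2 by DESeq2's Wald test, 0 and 0 by limma), and the median log2 fold change was -0.07. At an unadjusted p under 0.05, 2 lay above and 3 below 0, and 4 had their groups apart above and 5 below (33.3% together, against 41.9% of all tested unigenes). The 3 below 0 were c101031_g1, given further on, c85125_g2 (log2 fold change -0.87, SE 0.26, adjusted p = 0.193) and c103585_g1 (-0.4, SE 0.16, adjusted p = 0.349). The down-regulated c101169_g3 is also named as a transcription factor by the study and was counted above, as a cellulose synthase; with it the list would hold 1 down-regulated unigene. The up-regulated one, c101112_g1, for which no family is given, had 11.1 and 11 CPM in MS_CK and 19.8 and 29.4 CPM in MS_T. Without naming a genotype, the study lists c101112_g1 among factors that ethylene lowered, which is the opposite direction. The 2 water libraries coincided, and both ethephon libraries were higher (log2 fold change 1.16, SE 0.21, adjusted p = 0.0421). The adjusted p was 0.214, 0.245 and 0.353 without MS_CK replicate 1, MS_CK replicate 2 and MS_T replicate 2, and 0.128 with limma on log2(FPKM + 1). In LS c101112_g1 rose by 0.79 (adjusted p = 0.0316), from 30.4 and 25.6 to 45.9 and 51.2 CPM, and in HS its log2 fold change was 0.4 (adjusted p = 1). The study reports c100278_g1, c85125_g2, c93121_g3, c105226_g1, c95494_g4, c99023_g1 and c101031_g1 as lowered in MS. All lay below 0 here (-0.05 to -1.19), none called. It reports c67755_g1, c95935_g1 and c78352_g3 as slightly raised in MS, but here they lay at -0.13, -0.1 and -0.3, none called. In MS c100278_g1, c93121_g3 and c78352_g3 had at most 6 counts per library.

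Of the factors with a named family, the heat shock factor c101031_g1, of a class that switches on chaperone genes, had 47 and 61.1 CPM in MS_CK and 20.7 and 26.5 CPM in MS_T. The groups did not overlap, but the change was not called (log2 fold change -1.19, SE 0.33, adjusted p = 0.152). In HS and LS its log2 fold changes were 0.17 and 0.18, with overlapping groups in both and neither past the threshold. The difference between MS and LS, -1.37, did not pass the threshold (adjusted p = 0.205). The WRKY factor c97708_g1, of a family tied to stress and defence, had 37 and 36.5 against 52.5 and 68 CPM (log2 fold change 0.71, SE 0.2, adjusted p = 0.161). The ethylene response factor c81582_g1 had 8.52 and 8.99 CPM in MS_CK and 8.26 and 11 CPM in MS_T. Its groups overlapped (log2 fold change 0.14, SE 0.21, adjusted p = 0.857), and the sign turned to -0.08 without MS_T replicate 2. By qRT-PCR, not analysed here, the study reports that c81582_g1 rose after ethylene in every genotype.

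The 17 methyltransferase unigenes, whose enzymes move methyl groups onto other molecules, had a median log2 fold change of 0.06. edgeR called 0, with 2 at an unadjusted p under 0.05, and DESeq2's Wald test called 1 and limma 0. The 2 were c89405_g1 and c83430_g5, the latter with a log2 fold change of 0.73 (SE 0.33, adjusted p = 0.403). The highest was c89405_g1, at 4.87 and 2.67 CPM under water and 12.5 and 9.19 CPM after ethephon (log2 fold change 1.52, SE 0.32, adjusted p = 0.0676). It passed the threshold without the 501 unigenes (adjusted p = 0.0386), but not with any 1 MS library left out (0.135 to 0.376) or with limma (0.12). In HS it rose by 4.04 and in LS by 6.06 (adjusted p = 0.00121 and 1.91e-04), and its effect in MS was lower than in LS by -4.54 (adjusted p = 0.00715). Its level under water in LS_CK was 0.0835 and 0.122 CPM, from 2 and 3 counts, so the size of the LS rise and of the difference from MS is poorly fixed. The methyltransferase c79589_g3 had 54.5 and 13.6 CPM in the MS_CK replicates, an example of a wide spread within a group. Of the 4 acetyltransferases edgeR, DESeq2's Wald test and limma called 0, with 0 at an unadjusted p under 0.05 by edgeR (lowest adjusted p = 0.591).

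The next comparison asked how the unigenes that changed in MS behaved in the other genotypes. The MS contrast takes no mean from the HS and LS libraries, but the 12 libraries share the estimate of spread, so the tests in different genotypes are not independent. Most of the up-regulated unigenes were called in LS as well. In LS 155 of the 199 (77.9%) were up-regulated at the 5% threshold, against 6.29% of all tested unigenes and 8.12% of those with a log2 fold change above 0 in MS. In HS 15 of the 199 (7.54%) were up-regulated, against 0.0349% of all tested. Log2 fold changes were above 0 for 194 of the 199 in LS and for 193 in HS, with medians of 1.79 and 0.84. Of all tested unigenes 40.7% were above 0 in LS and 47.4% in HS. The median level of the 155 was 2.04 and 1.68 CPM in MS_CK, 9.62 and 11.7 CPM in MS_T, 2.55 and 3.33 CPM in LS_CK and 15.9 and 15.6 CPM in LS_T. With each genotype fitted on its own 4 libraries, an alternative chosen after seeing the data, 430 unigenes were up-regulated in MS. Of these, 402 were tested in LS and 243 (60.4%) were up-regulated there, against 7.73% of all unigenes tested in LS. In HS 390 were tested and 3 (0.769%) were up-regulated, against 0.00709% of all unigenes tested in HS. Of the 199, 191 were tested in that HS fit and 3 (1.57%) were up-regulated, so most of the 15 HS calls were not made there.

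The down-regulated unigenes of MS did not share 1 direction elsewhere. In LS 38 of the 102 were up-regulated (37.3%, against 6.29% of all tested) and 20 were down-regulated (19.6%, against 3.26%). In HS edgeR called 0 of the 102 in either direction, with 5 above and 25 below 0 at an unadjusted p under 0.05, and DESeq2's Wald test called 1 and 11 and limma 0. Over all tested unigenes HS had 0 down-regulated at the 5% threshold by edgeR, with 968 at an unadjusted p under 0.05, against 74 by DESeq2's Wald test and 3 by limma. The medians over the 102 were -0.08 in HS and 0.83 in LS, with 44 (43.1%) and 66 (64.7%) above 0. Of all tested unigenes 47.4% were above 0 in HS and 40.7% in LS, so the HS share was near that of all. The 38 that fell in MS and rose in LS had a median log2 fold change of -3.21 in MS, 0.12 in HS and 3.5 in LS. Their median level was 11 and 17.1 CPM in MS_CK and 1.69 and 1.21 CPM in MS_T, but 1.57 and 3.86 CPM in LS_CK and 29.7 and 27.1 CPM in LS_T. In HS it was 13 and 27.4 CPM under water and 21.3 and 20.6 CPM after ethephon. The lowest medians were those of MS_T and LS_CK. The fall in MS and the rise in LS chose these 38, so their MS and LS values follow in part from that choice. Of these 38, 32 were higher in LS_CK replicate 2 than in LS_CK replicate 1. So were 33 of the 44 that fell in MS and were not called in LS. The same held for 14 of the 20 that fell in both genotypes and for 85 of the 155 that rose in both. The share over all tested unigenes was not counted. A general offset between the 2 LS_CK libraries therefore cannot be told from a trait of these sets. The 20 that fell in both genotypes had medians of -1.47 in MS and -1.54 in LS. In the separate fits 421 of the 443 unigenes down-regulated in MS were tested in LS, where 46.6% were up-regulated and 14.7% down-regulated, against 7.73% and 2.23% of all tested there.

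**Figure D5:**
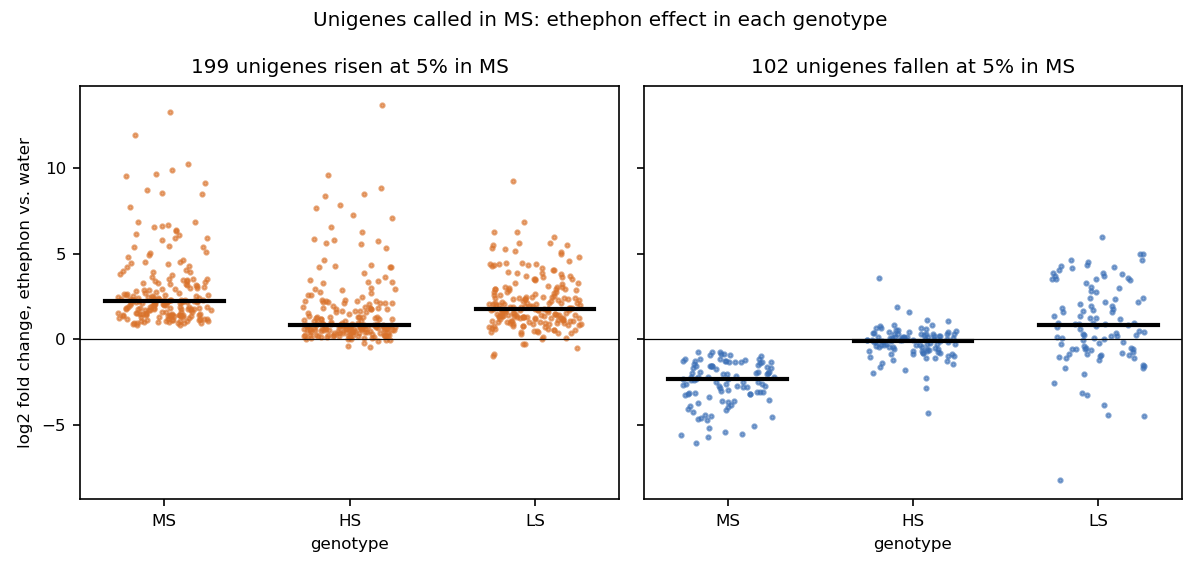
Log2 fold change of ethephon against water in MS, HS and LS for the 199 unigenes up-regulated (left) and the 102 down-regulated (right) in MS; each point is a unigene and each black line a median. The medians on the left are 2.21, 0.84 and 1.79, and those on the right -2.35, -0.08 and 0.83; the MS values themselves chose the unigenes.

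Whether the ethephon effect in MS differed from that in LS was tested as a difference in the same model. It passed the 5% threshold for 1072 unigenes (1.97%), of which 949 (1.74%) had the lower effect in MS and 123 (0.226%) the higher. Over the 1072 the median log2 fold change was -0.62 in MS, 0.14 in HS and 2.27 in LS. Of them, 771 were below 0 in MS and above 0 in LS. The difference between MS and LS chose these unigenes, so their MS and LS values are not independent evidence of opposite directions. Of these 1072, 880 were up-regulated in LS, as were 6.29% of all tested unigenes. In MS 67 of them were down-regulated, as were 0.187% of all tested. The number was 644, 464 and 375 without MS_CK replicate 1, MS_CK replicate 2 and MS_T replicate 2, and 788 without MS_T replicate 1. Without the 501 unigenes it was 1241.

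Between MS and HS, edgeR called 0 unigenes, with or without the 501, with 3178 (5.84%) at an unadjusted p under 0.05, and limma called 0 and DESeq2's Wald test 176 on all tested unigenes. The named unigenes differed from LS in both directions. The effect on c94165_g1 was higher in MS by 2.74 and that on c69704_g1 by 3.78 (adjusted p = 0.0096 and 0.0444), while for c85522_g1 and c78613_g1 the MS effect minus the LS effect was -2.36 and -3.96 (adjusted p = 0.00378 and 0.00254). These 4 were named for their p in MS, and the MS libraries enter both tests.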

How the data were processed

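RNA of developing stalk tissue was sequenced as poly-A selected libraries. The authors assembled clean reads with Trinity, represented each subcomponent by its longest transcript (the unigene) and aligned reads to these with RSEM (versions not given in the sources used here). The authors deposited an expected count of each of 163054 unigenes per library, not scaled between libraries, with 1 file per biological replicate. The deposited FPKM values were made by the authors from these counts, by unigene length and mapped fragments. Among 22319 unigenes with at least 50 counts in each MS library, the ratio of count to FPKM moved by over 1.5-fold between libraries for 2.25%.

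Expected counts were rounded to whole numbers. The tests ran in R (4.3.3) with edgeR (version 4.0.16), and for alternatives with limma (version 3.58.1) and DESeq2 (version 1.42.0). Plots were made in Python (3.11.15) by matplotlib (3.10.9). filterByExpr with a minimum count of 10 over 6 groups kept 54433 unigenes. TMM factors were 0.919 to 1.09. The quasi-likelihood test was fitted to all 12 libraries with 1 coefficient per group and 6 residual degrees of freedom (biological coefficient of variation 0.207), with p-values adjusted by Benjamini and Hochberg's method across the tested unigenes. The standard error is the log2 fold change divided by the square root of F. No replicate pair matched within sampling noise (chi-square per degree of freedom 11 in MS_CK and 16.7 in MS_T).

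Members and lists were chosen with earlier results of these data known. Named are the unigenes to which the text of the study gives a function (78, in 9 lists), with values for called members, the sucrose and ATPase lists and factors with a named family, and the 2 unnamed unigenes per direction with the smallest p. Members with an unadjusted p under 0.05, c79589_g3 and further cell wall and starch members were added after their values were seen. Alternatives were DESeq2's size factors, DESeq2's Wald test, no filter, only the libraries compared, limma on log2(FPKM + 1), thinning, a replicate block, sums per Trinity component and each MS library left out; 3 were added after seeing the data. The tests were first run on simulated data. DEGseq, the test of the study, was not run; sucrose, qRT-PCR, GO and KEGG data were not analysed here.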

Additional observations from a re-analysis of the deposited data

Results flagged for a closer look

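Each result here stands out because the ethephon effect differed between MS and LS by a direct test. The difference passed an adjusted p under 0.05 for 1072 unigenes. Among the named unigenes, the MS effect minus the LS effect on the log2 scale was -2.27 for ACA2 (c87964_g1), which had log2 fold changes of 0.82 in MS and 3.09 in LS. It was -4.54 for the methyltransferase c89405_g1, which had 1.52 in MS and 6.06 in LS, the latter resting on 2 and 3 counts in LS_CK. It was -2.36 for c85522_g1, which fell in MS and had a log2 fold change of 0 in LS, and -3.96 for c78613_g1, which fell in MS and rose in LS. Both c94165_g1 and c69704_g1 rose in both genotypes, and more in MS, by 2.74 and 3.78. For c69704_g1 this rests on 5 and 7 counts in MS_CK and on 12 and 53 counts in LS_CK. In HS they rose by 7.08 and 7.65, the latter from 0.349 and 0.1 CPM in HS_CK, so its size is poorly fixed.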

How the results depend on the processing

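Depth limits the low unigenes, and 2 libraries per group limit every call. The strict count of MS_T vs. MS_CK moved under nearly every choice; the up-regulated count stayed within 1.5 times under 6 alternatives (141 to 262) and the down-regulated count under 5 (76 to 102). The sign of the 301 called unigenes was the same in the 12 alternatives in which unigenes were matched. With only the libraries compared this held for 300 of 300. Signs were not counted on component sums or under the crossed pairing. The MS groups of all 301 did not overlap, so the kept sign says little. Strict, up- and down-regulated counts, for which the values as reported were 1, 199 and 102, were 684, 946 and 823 with DESeq2's Wald test; 1845, 1601 and 1569 with no filter on low counts; 187, 430 and 443 with only the libraries compared; and 44, 370 and 275 without the 501 unigenes, an alternative chosen after seeing the data. The strict count was also 5 with DESeq2's size factors, 14 with limma, 2 after thinning and 301 at the 5% threshold, and the down-regulated count was 66 on sums per Trinity component. Leaving out each MS library gave 0 to 18 strict, 0 to 262 up-regulated and 0 to 76 down-regulated unigenes. MS against LS, 1072 as reported, gave 2083 with DESeq2's Wald test, 2765 with no filter, 1241 without the 501 unigenes and 375 to 788 with 1 MS library left out; MS against HS, 0 as reported, gave 176 with the Wald test, 1466 with no filter, 0 without the 501 and 0 to 0 with 1 MS library left out. A replicate block (same-numbered libraries paired) gave 2, 99 and 37 in MS, 530 for MS against LS and 3 for MS against HS, with 103 of the 301 called again and c101169_g3 (adjusted p = 0.114), c101112_g1 (0.0992) and SPP2 (c91176_g1, 0.175) not called; no label says that numbers mark shared plots, and the correlation of same-numbered deviations was -0.11 in MS. The crossed pairing, chosen after seeing the data, gave 17 strict, 199 up- and 94 down-regulated unigenes under the block. Of 369 values of named unigenes under alternatives, 1 reversed: c81582_g1, at -0.08 without MS_T replicate 2 and at 0.36 without MS_T replicate 1. The division of variation (53.3% on FPKM) and the share with groups apart (40.4% on FPKM) moved little.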
